A study of Drosophila melanogaster with 19 samples.

Results

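The Rab GTPase genes of Drosophila melanogaster were described here by their binding of MSL2 in adult males. They were chosen by symbol, as the protein-coding genes of the Release 6 annotation named Rab or RabX followed by a number and at most a letter suffix. This gave 33 of 13922 protein-coding genes on the main chromosome arms, 13 of them among the 2197 X-linked genes and 20 among the 11725 autosomal genes. Their MSL2 peaks came from 2 of the 19 samples of the series, the MSL2 immunoprecipitation from M1[wt] males and that from wt males, with 1 sample in each group. All flies were listed under the strain Oregon-R and were taken whole at an age of 3 days. M1 stands beside the names of lines in a study of the N-terminus of MSL1, the scaffold subunit of the complex, and the sources used here give neither how the M1[wt] line was made nor the state of its own msl-1 gene. Whole flies pool all tissues, so a peak cannot be assigned to a cell type.

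Rab proteins are small GTPases that switch between a GTP-bound form, which sits on a membrane and recruits effectors, and a GDP-bound form held soluble by GDI. Each Rab marks its own compartment of the secretory or endocytic route. MSL2 is the male-specific subunit of the dosage compensation complex, which binds the single male X and raises transcription of its genes. The complex first binds strong entry sites on the X and is found from there on at active X-linked genes.

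Each list gave a peak's position, its summit and its strength, the −log10 p of the peak as the authors deposited it. A gene counted as having a peak if at least 1 summit was inside its span or at most 1000 bases beyond either end. The M1[wt] list held 3935 peaks on the main chromosomes, 1595 of them on the X, and the wt list 3788, with 1615 on the X. The read depth is unknown, and strength grows with depth, so strengths were ranked within a list and no change between the lists was computed. Both lists were called against the male preimmune control, so they are not independent of each other. As a check of the labels, the summit with the highest strength of each list lay in lncRNA:roX1, an RNA component of the complex (16196 in M1[wt] males and 15312 in wt males). With 1 sample a group no difference between the lines was tested, and counts by chromosome are read beside the share of all genes of the same class.

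X-linked Rab genes carried peaks as often as X-linked genes in general, and they fell into a group with peaks in each list and a group with none in either. Of the 13, 7 had a peak in M1[wt] males and 7 in wt males (53.8% in each), against 52.0% of all X-linked protein-coding genes in M1[wt] males and 53.7% in wt males. The genes were Rab35, Rab18, Rab40, Rab39, Rab10, Rab21 and Rab27 in each list. RabX2, Rab9D, Rab9Db, Rab9E, Rab9Fa and Rab9Fb had none in either. On the autosomes 10 of 20 Rab genes had a peak in M1[wt] males and 6 of 20 in wt males. These are 50% in M1[wt] males, against 24.1% of all autosomal genes, and 30% in wt males, against 22.3%. Rab genes thus stood close to the background on the X in each list, above it on the autosomes in M1[wt] males, and nearer to it on the autosomes in wt males. The X comparison moved with the distance allowed. Within 200 bases it was 7 of 13 in each list, against 41.1% of X-linked genes in M1[wt] males and 43.4% in wt males. Within 5000 bases it was 9 of 13, against 70.1% in M1[wt] males and 69.7% in wt males. The wt autosomal count depended on the distance allowed: it was 3 of 20 with summits within 200 bases, against 15.3% of all autosomal genes, and 2 of 20 with each summit given to 1 gene, against 14.7%, so at or below the background.

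**Figure D1:**
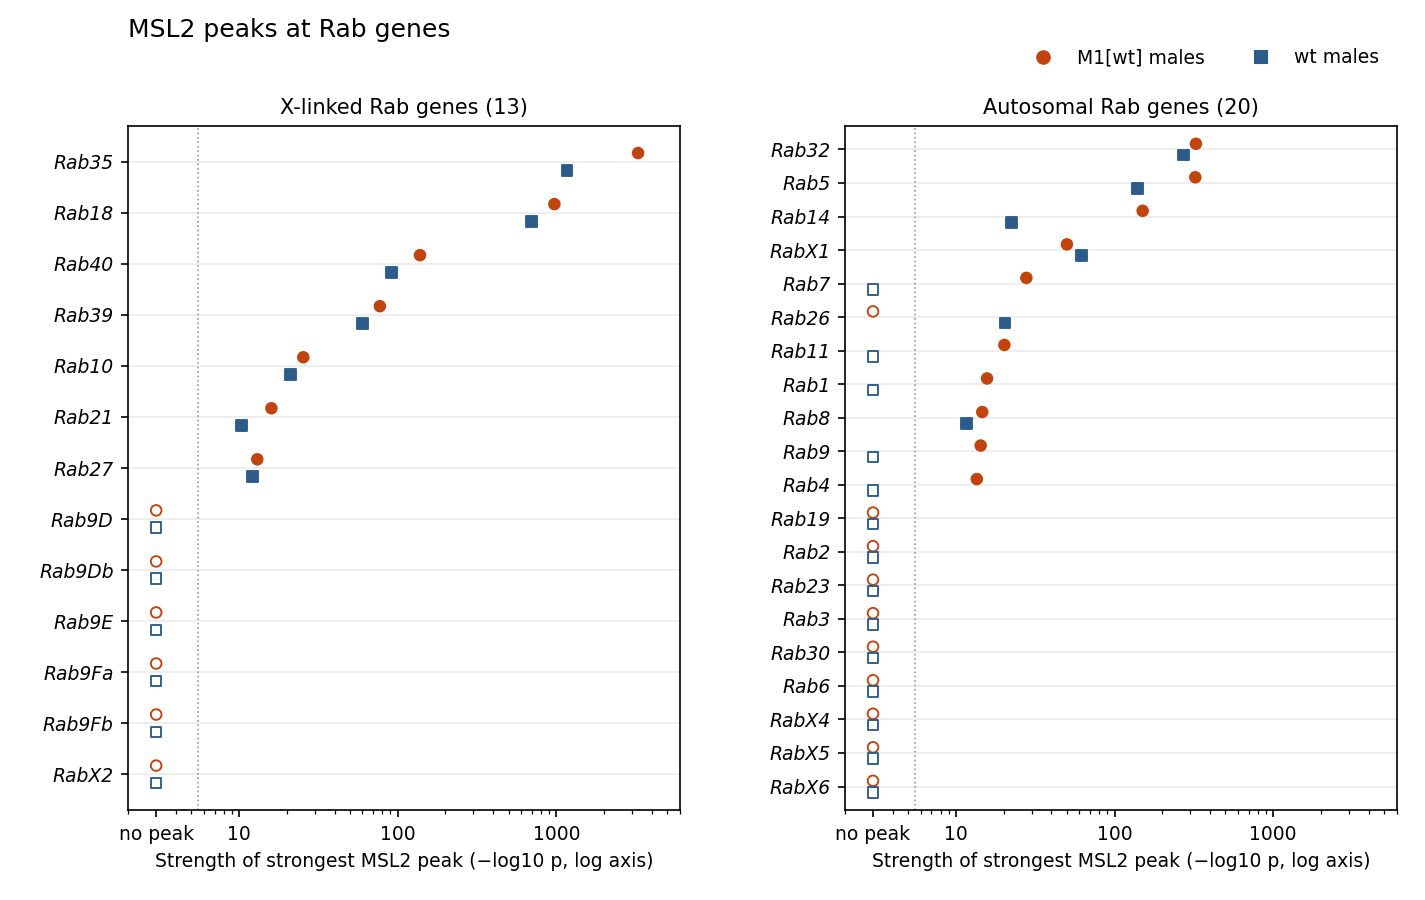
Strength (−log10 p, log axis) of the strongest MSL2 peak in or within 1000 bases of each Rab gene, with 1 point per list, M1[wt] males as circles and wt males as squares, and open symbols for genes without a peak. The 7 X-linked genes with peaks reach 3280 in M1[wt] males and 1172 in wt males at Rab35, while autosomal genes reach 326 in M1[wt] males and 273 in wt males at Rab32.

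Among X-linked members, Rab35, which acts in endocytic recycling and actin organisation, held the strongest peak. It lay at X:20158755-20159906 in M1[wt] males with a strength of 3280 and rank 18 of the list, and at X:20158807-20159971 in wt males with 1172 and rank 45. The replicate calls that the list combines gave 3280 and 3700 in M1[wt] males, and 1422 and 1172 in wt males. The summits lay inside the gene, 699 bases from its end at higher coordinates in M1[wt] males and 690 in wt males. This peak was stronger than 98.9% of the X peaks of the M1[wt] list and than 97.5% of those of the wt list. A second, weak wt peak (11.5) lay near the middle of the gene.

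Rab18, known for its place on lipid droplets and the endoplasmic reticulum, had 3 peaks in each list, none with its summit inside the gene, which is 986 bases long. The strongest had a strength of 973 and rank 94 in M1[wt] males and of 699.8 and rank 79 in wt males. Its summit lay within the neighbouring gene CG4119, 760 bases from Rab18 in M1[wt] males and 747 in wt males. The summit nearest Rab18 lay just past its end, 36 bases outside with a strength of 75.6 in M1[wt] males and 35 bases outside with 47.8 in wt males. The third summit was in the ribosomal protein gene RpL35, 906 bases away in M1[wt] males and 885 in wt males. The high value at Rab18 is thus that of a peak in CG4119.

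Rab40 belongs to the Rabs with a SOCS box, which links them to ubiquitin ligases. It had peaks at one edge of the gene in each list. In M1[wt] males a narrow peak 49 bases outside the gene had 138 and a peak inside had 60.8. In wt males the order was turned round, with 39.8 for the peak outside and 91.4 for the one inside, and a further peak of 13.3 lay beyond the other end. Rab39, known from lysosome-related traffic, had its strongest summit 283 bases outside in M1[wt] males (77.2) and 286 bases outside in wt males (59.95), in the neighbouring gene Pdp. Inside Rab39 itself lay 1 summit in M1[wt] males (30.7) and 2 in wt males (20.3 and 19.6).

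Rab10, Rab21 and Rab27 had their strongest summit inside the gene, at strengths under the median of all X peaks (36.6 in M1[wt] males and 22.2 in wt males). Rab10, required in flies for polarised secretion of basement membrane proteins, had 25.4 at rank 2448 in M1[wt] males and 21.1 at rank 2006 in wt males. Rab21, an endosomal Rab, had 16.0 at rank 3293 in M1[wt] males and 10.3 at rank 3374 in wt males. Rab27, which serves the release of secretory granules, had 13.0 at rank 3660 in M1[wt] males and 12.2 at rank 3009 in wt males. Of all X peaks 7.21% were weaker than the Rab27 peak in M1[wt] males and 19.8% in wt males, while 38.7% in M1[wt] males and 47.9% in wt males were weaker than the Rab10 peak.

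Strong peaks nonetheless lay a few kilobases from the weakest members. Beside mei-38, a summit stood 4611 bases from Rab27 with a strength of 1019 (rank 88) in M1[wt] males and 4615 bases from it with 839 (rank 61) in wt males. In the fucosyltransferase gene FucTC, a summit stood 3240 bases from Rab21 with 775 (rank 129) in M1[wt] males and 3223 bases from it with 387 (rank 144) in wt males. The order of the members by strength therefore holds for summits within 1000 bases and says nothing of the wider neighbourhood.

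**Figure D2:**
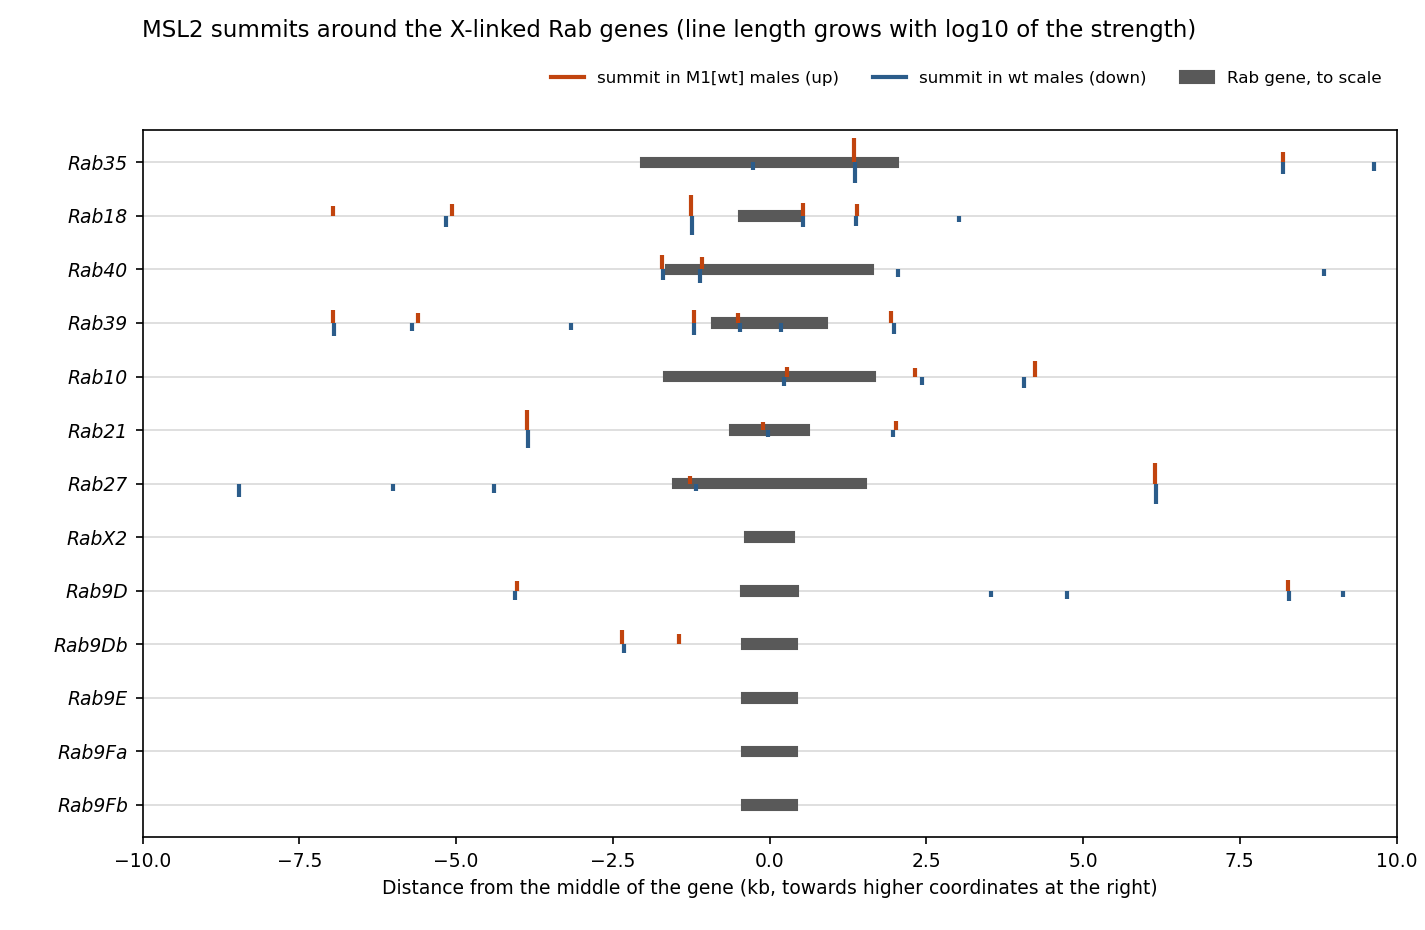
MSL2 summits within 10 kb of the middle of each X-linked Rab gene, with M1[wt] males drawn upwards and wt males downwards, line length growing with log10 of the strength, and the gene as a box to scale. Rab21 and Rab27 have a weak summit inside and a strong one 3240 and 4611 bases away in M1[wt] males (3223 and 4615 in wt males), and RabX2, Rab9E, Rab9Fa and Rab9Fb have no summit in view.

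The 6 X-linked members without a peak lie in a stretch of 535 kb, X:10417429-10952486. They are RabX2 and the 5 genes whose names derive from Rab9. The Rab9-named genes are related copies, and how reads shared between them were counted was not stated, so a missing peak there is uncertain. They are the shortest members of the family, from 791 bases (RabX2) to 897 bases (Rab9D), and shorter than Rab18 (986 bases). Summits were not scarce along the stretch. It held 40 in M1[wt] males and 47 in wt males, or 74.8 per Mb in M1[wt] males, against 69.0 over the span of X-linked genes, and 87.8 per Mb in wt males, against 69.6. Of its 51 protein-coding genes 26 had a peak in M1[wt] males (51.0%), against 52.0% of all X-linked genes. In wt males 33 had one (64.7%), against 53.7%.

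The distance to the nearest summit separated these 6 genes further. RabX2 was 32860 bases from the nearest summit in M1[wt] males and 32785 in wt males. In M1[wt] males the distances were 39608 bases for Rab9E, 22781 for Rab9Fa and 24230 for Rab9Fb, and in wt males 40481, 22791 and 24240. The median X-linked gene was 789 bases from a summit in M1[wt] males and 648 in wt males. No summit lay within 20 kb of 16.8% of X-linked genes in M1[wt] males and of 16.2% in wt males. These 4 genes lie wholly within the span of a longer gene. RabX2 is in CG32683, Rab9E in X11Lbeta, and the neighbours Rab9Fa and Rab9Fb in the myosin gene Myo10A. Neither CG32683 nor Myo10A had a peak in either list, and X11Lbeta had 1 in each, of strength 152 in M1[wt] males and 29.9 in wt males.

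Rab9D and Rab9Db had summits closer by. Rab9Db was the member just outside the limit of 1000 bases, with a summit of strength 33.3 at 1008 bases in M1[wt] males. A stronger M1[wt] summit, of 141 at rank 655, lay 1913 bases from Rab9Db. Its nearest wt summit was at 1881 bases (17.6). For Rab9D the nearest were at 3573 bases in M1[wt] males, with a strength of 28.5, and at 3085 bases in wt males, with 9.19 and inside Hmr. Just inside the limit were Rab26 and Rab8 in wt males (718 and 726 bases) and Rab4 in M1[wt] males (616 bases), each with no summit closer.

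**Figure D3:**
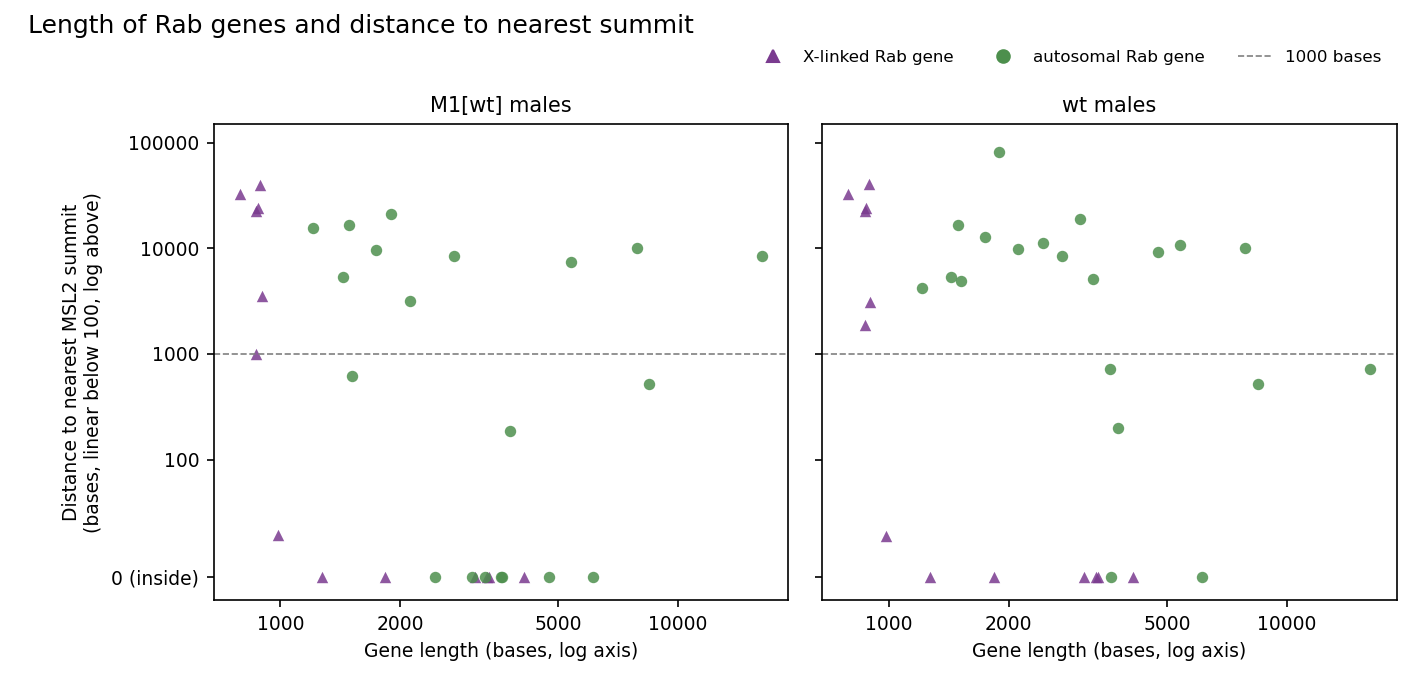
Gene length (bases, log axis) and distance to the nearest MSL2 summit (bases, linear below 100 and log above) for each Rab gene, X-linked as triangles and autosomal as circles, in M1[wt] males at the left and wt males at the right, with a dashed line at 1000 bases. The 6 X-linked genes above the line are 791 to 897 bases long.

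Gene length moved with the presence of a peak among members and among all genes. Of X-linked Rab genes of 2000 bases or more, 4 of 4 had a peak in each list, against 64.5% of all such X-linked genes in M1[wt] males and 65.1% in wt males. Of those under 2000 bases, 3 of 9 had a peak in each list (33.3%), against 33.4% in M1[wt] males and 36.8% in wt males. The short X-linked Rab genes thus carried peaks about as often as other short X-linked genes. Of autosomal Rab genes of 2000 bases or more, 9 of 14 (64.3%) had one in M1[wt] males, against 33.3%, and 6 of 14 (42.9%) in wt males, against 31.8%. Of those under 2000 bases, 1 of 6 did in M1[wt] males, against 14.0%, and 0 of 6 in wt males, against 12.1%. The part of gene length in the counts above was not tested.

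**Figure D4:**
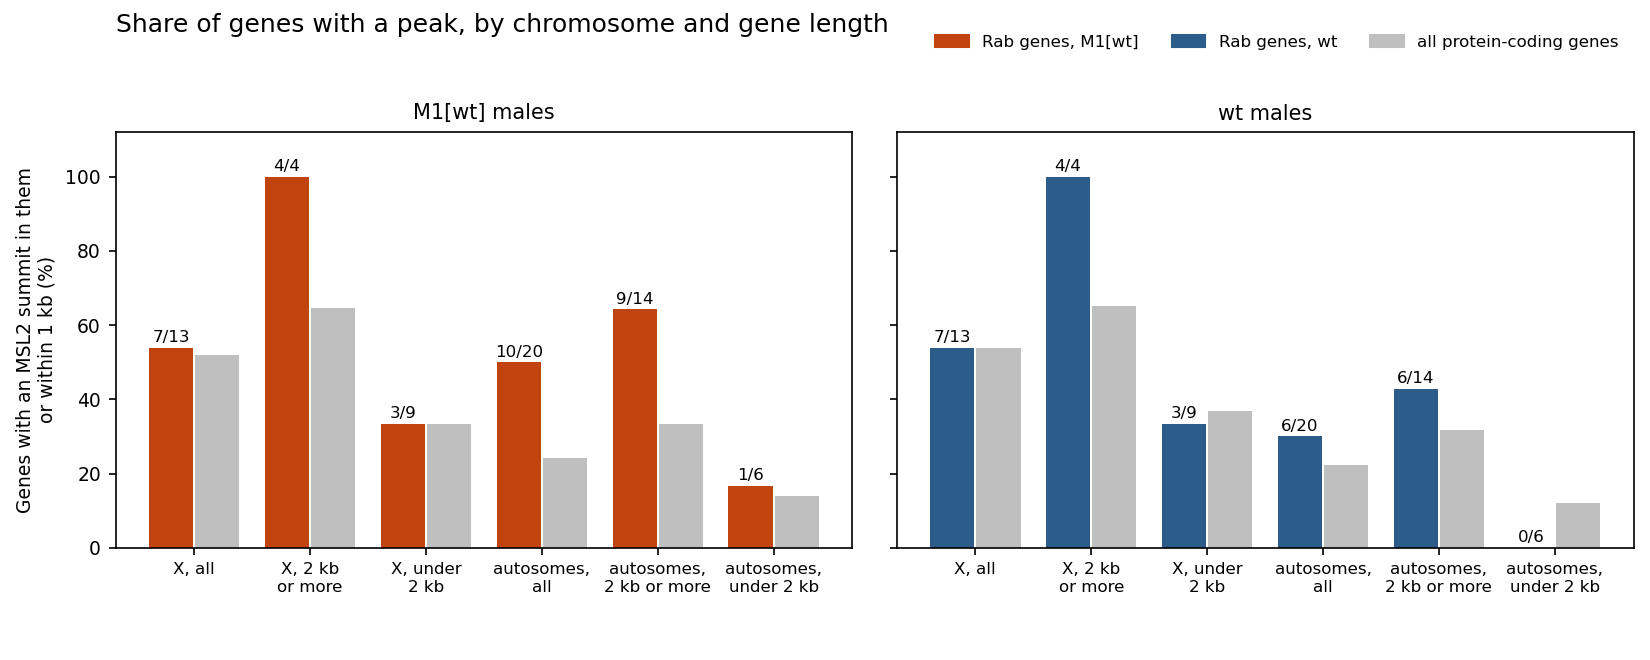
Share of Rab genes (coloured bars, with counts) and of all protein-coding genes (grey bars) that had an MSL2 summit in them or within 1000 bases, by chromosome class and gene length, in M1[wt] males at the left and wt males at the right. X-linked Rab genes stand near all X-linked genes (53.8% against 52.0% in M1[wt] males). Autosomal Rab genes stand above all autosomal genes in M1[wt] males (50% against 24.1%) and nearer to them in wt males (30% against 22.3%).

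A strength of 50 or more was reached by 4 of 20 autosomal Rab genes in M1[wt] males, against 11.2% of all autosomal genes. In wt males it was reached by 3 of 20, against 7.39%. Rab32, the lightoid gene of eye pigment granules, had 326 at rank 298 in M1[wt] males and 273 at rank 212 in wt males. The replicate calls gave 326 and 394 in M1[wt] males, and 346 and 273 in wt males. Its summit lay outside the gene, by 521 bases in M1[wt] males and 520 in wt males, and nearer to Rme-8, an endocytic cochaperone gene. Rab5, which defines the early endosome, had 323 at rank 302 in M1[wt] males and 140 at rank 386 in wt males, in the peaks 2L:2362763-2364898 (M1[wt]) and 2L:2363626-2364894 (wt). Its summits, at 2364385 in M1[wt] males and 2364384 in wt males, lay inside Rab5 and within 1000 bases of Axud1 too.

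Rab14, of endosome to Golgi traffic, had a peak near each end. Beyond one end, towards Pgant35A, the strength was 150 at rank 619 in M1[wt] males and 18.6 at rank 2204 in wt males. Inside the other end it was 36.6 in M1[wt] males and 22.5 in wt males. RabX1, an endosomal member also known as chrowded, had 50.1 at rank 1542 in M1[wt] males and 61.7 at rank 825 in wt males. The summit was nearer to mi, 186 bases outside RabX1 in M1[wt] males and 199 in wt males. Rab8, of transport to the plasma membrane, had a weak peak inside in M1[wt] males (14.7) and a different one in wt males (11.6), 726 bases outside in Usp32.

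The other autosomal calls stood in 1 list only and were weak. In M1[wt] males they were at Rab7, of late endosomes (27.8), Rab11, of recycling endosomes (20.2), Rab1, of transport from the endoplasmic reticulum to the Golgi (15.7), Rab9, of recycling from late endosomes (14.3), and Rab4, of rapid recycling (13.5). The first 4 summits were inside the gene, and that of Rab4 was in CG42239. In wt males the call was at Rab26, a synaptic vesicle Rab in mammals (20.4), 718 bases outside and nearer to Pc. In wt males the nearest summits lay 11270 bases from Rab7, 9246 from Rab11, 19050 from Rab1, 5121 from Rab9 and 4891 from Rab4. The nearest M1[wt] summit to Rab26 was 8385 bases away. Presence in 1 list only does not measure a difference in binding, because a peak had to pass in a pair of replicate calls to be listed.

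Without a peak in either list were 9 autosomal members. They were Rab2 and Rab6, of the Golgi and its transport, Rab3, of synaptic vesicles, Rab19, Rab23, Rab30, RabX4, RabX5 and RabX6. Rab30 was the closest to a summit in M1[wt] males, at 3199 bases, and RabX5 in wt males, at 4188 bases. Rab6 was the farthest, at 21256 bases in M1[wt] males and 81702 in wt males.

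Peaks stood at most of the broadly used members in M1[wt] males and at 7 of 13 in wt males. In each list 1 of the restricted X-linked members had a peak. The classes were set by hand from general knowledge of where the genes are used and not from expression in these flies. Of 13 broadly used Rabs, 11 had a peak in M1[wt] males (84.6%) and 7 in wt males (53.8%). These counts pool X-linked and autosomal members, so the shares of all genes are given by chromosome below. Of 7 restricted X-linked Rabs, 1 had a peak in each list (14.3%), and it was Rab27. Among all X-linked genes the share was 52.0% in M1[wt] males and 53.7% in wt males, and among those under 2000 bases 33.4% in M1[wt] males and 36.8% in wt males. On the X alone 4 of 4 broadly used members (Rab10, Rab18, Rab21 and Rab35) had a peak in each list, against the same 52.0% in M1[wt] males and 53.7% in wt males. On the autosomes 7 of 9 had one in M1[wt] males, against 24.1% of all autosomal genes, and 3 of 9 in wt males, against 22.3%. These 9 members have a median length of 3032 bases. Among autosomal genes of 2000 bases or more the share was 33.3% in M1[wt] males and 31.8% in wt males. The wt count of 3 of 9 (33.3%) thus stood near the share of long genes, and the wt summit counted for Rab8 lay in Usp32. Rab7, Rab11, Rab1 and Rab4 had a peak in M1[wt] males only, at strengths from 13.5 to 27.8. The classes differ in length, with a median of 2312 bases for the broadly used X-linked members and 878 for the restricted ones, and the part of length in this difference was not tested. The remaining X-linked members, Rab39 and Rab40, had peaks in each list, and of the 11 remaining autosomal members Rab32 and RabX1 had one in each list, Rab9 in M1[wt] males only and Rab26 in wt males only.

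In strength the X-linked members ran over the wider range. From the weakest to the strongest, those with a peak ran from 13.0 to 3280 in M1[wt] males with a median of 77.2, against a median of 62.7 over all X-linked genes with a peak, and from 10.3 to 1172 in wt males with a median of 60.0, against 36.2. Autosomal members ran from 13.5 to 326 in M1[wt] males with a median of 24.0, against 44.7 over all autosomal genes with a peak, and from 11.6 to 273 in wt males with a median of 42.1, against 31.2. The X median in each list was the value of Rab39, whose strongest summit lay in Pdp. Counting only summits inside the gene, the median over 6 X-linked members was 28.1 in M1[wt] males and 20.7 in wt males, with Rab18 left out for having none. Rab39 then counted with 30.7 in M1[wt] males and 20.3 in wt males. No median over all genes is given for this setting. For autosomal members the median with summits inside the gene was 20.2 over 7 genes in M1[wt] males and 81.2 over 2 genes in wt males. In wt males the order of the X and autosomal medians thus turned. A strength of 50 or more was reached by 4 X-linked members in each list (Rab35, Rab18, Rab40 and Rab39), against 28.4% of X-linked genes in M1[wt] males and 22.5% in wt males. On the autosomes 4 members reached it in M1[wt] males, against 11.2%, and 3 in wt males, against 7.39%.

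Several of these peaks belong as much to a neighbour as to the Rab gene. Summits inside the gene were found at 6 of 13 X-linked members in each list, against 37.3% of all X-linked genes in M1[wt] males and 39.0% in wt males. On the autosomes they were found at 7 of 20 members in M1[wt] males, against 10.4%, and at 2 of 20 in wt males, against 9.89%. The strongest summit was nearer to another gene at Rab18 and Rab39 in each list, at Rab14, Rab32, Rab4 and RabX1 in M1[wt] males and at Rab32, RabX1, Rab8 and Rab26 in wt males.

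The partners of Rab proteins were looked up from a list of 47 genes by role. On the X 7 of 8 had a peak in M1[wt] males (87.5%), against 52.0% of all X-linked genes and 64.5% of those of 2000 bases or more. In wt males 5 of 8 had one (62.5%), against 53.7% and 65.1%. On the autosomes 12 of 39 had one in M1[wt] males (30.8%), against 24.1% of all autosomal genes and 33.3% of those of 2000 bases or more. In wt males 14 of 39 had one (35.9%), against 22.3% and 31.8%. The X-linked partners were long, with a median of 11006.5 bases, against 4881 for the autosomal ones. Except for the X in M1[wt] males, the partners thus stood near the share of long genes. The counts by role that follow are small and are to be read against the same shares. Each strength given is that of the strongest summit in the partner or within 1000 bases. Whether that summit lay nearer to another gene was not looked up for each partner, so it can belong to a neighbour.

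Effectors bind the GTP form of a Rab and carry out its function. Of the X-linked effectors 3 of 4 had a peak in M1[wt] males and 2 of 4 in wt males, and of the autosomal ones 5 of 15 in each list (33.3%), against 24.1% of all autosomal genes in M1[wt] males and 22.3% in wt males. Rip11, an X-linked effector of Rab11, had 5822 at rank 3 in M1[wt] males and 5698 at rank 5 in wt males, above every Rab gene in its list. The lysosomal tethering gene car had 391 at rank 253 in M1[wt] males and no peak in wt males. Rph, the rabphilin gene, had 49.9 in M1[wt] males and 37.8 in wt males, and lies within the stretch of the X that holds the Rab9-named genes. Another tethering gene, dor, had none in either list. On the autosomes Rbsn-5, an effector of Rab5, had 162 in M1[wt] males and none in wt males. BicD, a dynein adaptor bound by Rab6, had 85.3 in M1[wt] males and 22.2 in wt males, and Golgin245 had 39.8 in M1[wt] males and 37.2 in wt males.

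Exchange factors load GTP onto a Rab. On the X 3 of 3 had a peak in M1[wt] males and 2 of 3 in wt males, and on the autosomes 3 of 10 in each list (30%), against the same 24.1% in M1[wt] males and 22.3% in wt males. Crag had 4 peaks in each list, the strongest with 78.6 in M1[wt] males and 20.9 in wt males. The Rab5 exchange factor gene spri had 28.5 in M1[wt] males and 21.8 in wt males, and Rab3-GEF had 18.4 in M1[wt] males and none in wt males. In M1[wt] males the summit of 28.5 counted for spri lay outside that gene and was the summit nearest Rab9D. The wt summit of 21.8, the only 1 counted for spri in that list, also lay outside spri, 3608 bases from Rab9D. The autosomal ones with the strongest M1[wt] peaks were pcs, with 47.2 in M1[wt] males and 18.2 in wt males, Rich, with 29.6 in M1[wt] males and 35.2 in wt males, and ca, with 15.97 in M1[wt] males and 19.4 in wt males.

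GTPase activating proteins switch a Rab off. The X-linked Evi5 had 83.3 in M1[wt] males and 13.2 in wt males. Of the autosomal ones 2 of 10 had a peak in M1[wt] males (20%), against 24.1% of all autosomal genes and 33.3% of the long ones. In wt males 3 of 10 did (30%), against 22.3% and 31.8%. Among them sky had 31.9 in M1[wt] males and none in wt males, and RN-tre had 29.4 in M1[wt] males and 39.2 in wt males. Genes for lipid modification and membrane delivery of Rabs were all autosomal, with a peak at 2 of 4 in M1[wt] males, against 24.1%, and at 3 of 4 in wt males, against 22.3%. RabGGTb, a subunit of the enzyme that adds the lipid anchor, had 132 in M1[wt] males and 103 in wt males. Gdi, which extracts Rabs from membranes, had 26.9 in M1[wt] males and 20.2 in wt males.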

How the data were processed

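MSL2 was immunoprecipitated from crosslinked chromatin of pooled whole adult flies, per the labels' protocols. Per the submitters' processing notes the tools included MACS2, Bowtie2, cutadapt, deepTools and Picard, and the builds dm6 and dm3, with no role stated. How reads that map to several places were handled, which bears on copies such as the Rab9-named genes, was not stated in the sources used here. The deposited lists have 20 columns in the layout of the irreproducible discovery rate (IDR) method. Strength is the deposited −log10 p, in all 3944 M1[wt] and 3799 wt rows the lower value of 2 replicate calls, and the largest global IDR is 0.0499 and 0.04998. The authors also deposited a score, a scaled form of the global IDR, which was not used. Peaks off the main arms were left out. Positions are 1-based Release 6 (dm6), from NCBI RefSeq's gene table, which gives no strand, so gene starts and ends were not told apart and no sequence was used. All Rab genes are named, all X-linked partners, and the up to 3 autosomal partners per role with the strongest M1[wt] peak. The members and lists were chosen with earlier results of these data known. Python 3.11.15, pandas 2.3.3 and matplotlib 3.10.9 were used. Tested on simulated data, the assignment found 100% of 200 genes given a summit.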

Additional observations from a re-analysis of the deposited data

How the results depend on the processing

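Of 74 recomputed counts and medians, 48 kept their value, or for counts stayed within 1.5 times of it. A count was set against its main value only, so a kept count can stand beside a changed share of all genes. A strength of at least 50 left 4 X-linked Rab genes with a peak in each list. Autosomal ones were 4 in M1[wt] males and 3 in wt males. On the X the share of all genes was then 28.4% in M1[wt] males and 22.5% in wt males. On the autosomes it was 11.2% in M1[wt] males and 7.39% in wt males. To be read beside these shares, 4 of 13 broadly used members were left in M1[wt] males and 3 of 13 in wt males. Of 7 restricted X-linked members 0 were left in either list. Of 20 autosomal Rab genes in wt males, the count was 2 with summits inside the gene (against 9.89% of all autosomal genes), 3 within 200 bases (15.3%), 3 with any base of the interval in the gene (17.7%), and 2 with each summit given to 1 gene (14.7%), a setting chosen after seeing the data. Under these 4 settings the wt autosomal count was no longer clearly above the share of all genes, and under the last 3 it was at or below it. The M1[wt] counts were 7, 8, 8 and 7 of 20, against 10.4%, 16.6%, 19.7% and 15.8%. With 5000 bases allowed the autosomal counts were 11 of 20 in M1[wt] males, against 40.2%, and 8 of 20 in wt males, against 37.8%. Within 5000 bases the restricted count was 3 of 7 in each list, since Rab9D and Rab9Db joined Rab27. The share of all X-linked genes was then 70.1% in M1[wt] males and 69.7% in wt males. At a global IDR of 0.01 or less the restricted count was 0 in M1[wt] males, against 47.1% of all X-linked genes. In wt males it stayed at 1 of 7 (Rab27), against 48.2%. By the main setting the 5 Rab9 copies alone gave 0 in each list, which follows from leaving out Rab27, the only restricted member with a peak. With the first replicate call the median strength of X-linked members was 88.8 in M1[wt] males and 80.4 in wt males, and that of autosomal ones 58.2 in wt males. With the second call the autosomal medians were 29.2 in M1[wt] males and 42.8 in wt males. With summits inside the gene, also chosen after seeing the data, the medians were 28.1 (M1[wt]) and 20.7 (wt) on the X, and 20.2 (M1[wt]) and 81.2 (wt) on the autosomes, the last over 2 genes, which turned the order of the X and autosomal medians in wt males. Counting every symbol that starts with Rab and a digit added Rab3-GEF in M1[wt] males and Rab3GAP1 in wt males. The medians by the row nearest the gene start were not run, as the gene table gives no strand. No paired analysis was possible because each group holds 1 sample. The unknown read depth limits how weak a peak could be listed: the lowest strength on the main arms was 9.58 in M1[wt] males and 7.72 in wt males.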
